A study of Mus musculus with 8 samples.

Results

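The nuclear genome encodes most of the proteins of the mitochondrial respiratory chain, and 72 genes were collected here by the letters of their symbols: those starting with Ndufa, Ndufb, Ndufc, Ndufs or Ndufv, Uqcr, Cox4 to Cox8, and Sdha to Sdhd, without the Ndufaf assembly factors and without pseudogenes. They were 72 of the 30406 genes that both gene lists of the series share by Ensembl identifier. They held 36 subunits of complex I, of which 7 are core subunits and 29 supernumerary, 4 subunits of complex II, 8 of complex III and 20 genes placed with complex IV. The other 4, Sdhaf1 to Sdhaf4, are assembly factors of complex II that carry the same letters and were kept. Together the 72 genes took 820158 of 65866224 UMIs (unique molecular identifiers, one per captured RNA molecule) in 32457 annotated cells.

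The cells were leukocytes sorted as CD45+ and CD45iv-, that is, not reached by an antibody given into the blood, from C57BL/6 mice, which the methods describe as adult males. Control libraries came from brain parenchyma, dura mater and pia mater, 1 library each, of mice that the methods call naive and a figure legend calls sham, so which of these the control was is unsettled. After transient middle cerebral artery occlusion (MCAO), a filament model of ischemic stroke, brain parenchyma was sampled at 24 h in 2 libraries and at 72 h in 1, and dura and pia at 24 h in 1 library each. Mice were pooled for each compartment by the study's reporting summary, and how many went into each library was not found. The paper used 2 artery occlusion times, and which of them each library had was not found. Libraries of different times come from different mice, while those of 1 condition may share mice, and the p-values below measure the spread between libraries only. One control library is titled as brain but is given as pia by all its remaining labels, and it was used as pia.

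Depth was 6591898 to 20754181 UMIs per library, and 358 of 36854 cell barcodes occurred in more than 1 library, at most 43 in any pair. The 21 clusters are those of the deposited annotation. Of 37 marker and cell type pairs, 34 were highest in a cluster of their own cell type. The markers are those with which the paper annotated these clusters from the same counts, so this is no independent check. Granulocyte markers that the paper gives for both clusters were divided here between Granulo_1 and Granulo_2. The stress_Micro cluster also carried RNA of other cell types, with 666 CPM of the hemoglobin gene Hbb-bs. CPM are counts per 1000000 UMIs of the same sum, for a cluster or class of cells within 1 library, or for a whole library. Brain 24 h replicate 2 and brain 72 h were counted on a shorter gene list of 31053 genes instead of 32285. Because the clusters were made from these same counts, levels across clusters are a description.

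Complex I takes electrons from NADH and complex II from succinate, both pass them to ubiquinone, complex III passes them on to cytochrome c, and complex IV passes them to oxygen. Complexes I, III and IV mix subunits of nuclear and mitochondrial genes, whereas all subunits of complex II are nuclear. Microglia and macrophages are known to shift between oxidative phosphorylation and glycolysis with their activation state.

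Across clusters, the mean summed level of the 72 genes was high in proliferating cells, in the Granulo_1 cluster, in T cells and in the CAM_2 macrophages, and low in both stress clusters, the Micro_2 and Micro_3 microglia and mast cells. These means are over different libraries, from 1 to 8 of them. Over the libraries with at least 30 cells, prolif_cells held 19145 ± 4517 CPM (SD, n = 3), Granulo_1 17609 ± 2445 CPM (n = 7), gdTc 16401 ± 2158 CPM (n = 4), CAM_2 16371 ± 3843 CPM (n = 8) and Tc 16058 ± 2930 CPM (n = 8). At the other end stood stress_Myeloid with 6067 ± 2465 CPM (n = 3), stress_Micro with 6860 ± 3108 CPM (n = 2), Micro_2 with 6996 ± 1728 CPM (n = 6), Micro_3 with 8315 ± 1770 CPM (n = 6) and Mast with 8698 ± 735 CPM (n = 2). No 2 neighbours in this order of 21 clusters differed by more than the larger of their SDs. Close below Tc came mDC1 (15727 CPM) and NK (15684 CPM). The middle was held by ILC2 (13685 CPM), mDC2 (13020 CPM), SAMC (12885 CPM), Macro_2 (12381 CPM) and Macro_1 (12014 CPM, 1 library). Below them stood CAM_1 (11519 CPM), Bc (10638 CPM), Micro_1 (10324 CPM) and Granulo_2 (10113 CPM).

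**Figure D1:**
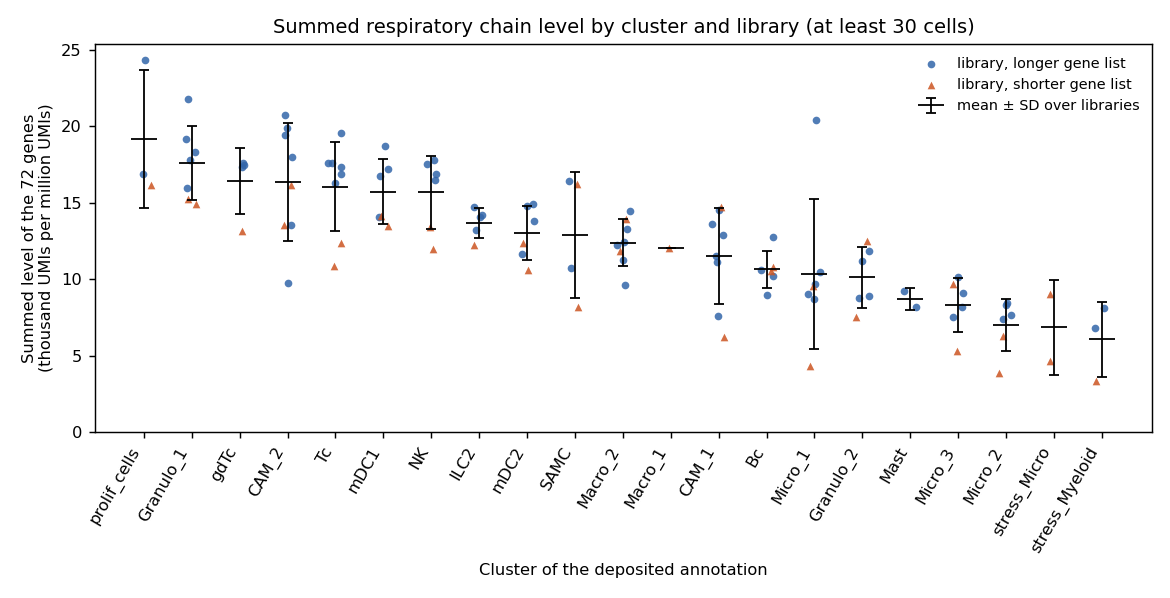
Summed level of the 72 genes (kilo-CPM) in each cluster, 1 point per library with at least 30 cells. Circles are libraries counted on the longer gene list, triangles those on the shorter one, and black marks give the mean ± SD. The means fall from 19145 CPM in prolif_cells to 6067 CPM in stress_Myeloid, and 1 Micro_1 library, dura 24 h, stands at 20450 CPM.

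Libraries differed in overall level, from 0.840% of annotated UMIs in control brain to 1.50% in dura 24 h, so each cluster was also compared with the other annotated cells of its own library. Granulo_1 lay above them in 7 of 7 libraries, with a mean log2 ratio of 0.53 ± 0.29 (SD), CAM_2 in 8 of 8 (0.45 ± 0.18) and Tc in 7 of 8 (0.42 ± 0.38). Proliferating cells, with the highest mean, lay above them in 3 of 3 by less (0.40 ± 0.28) and were the top cluster only in dura 24 h. The mDC1 (0.31 ± 0.19) and NK clusters (0.29 ± 0.22) lay above the other cells in 5 of 6 libraries each. Micro_2 lay below them in 6 of 6 libraries (-0.77 ± 0.44), as did Micro_3 (-0.47 ± 0.32) and Granulo_2 (-0.37 ± 0.18). The stress_Myeloid (-1.01 ± 0.40, n = 3), stress_Micro (-0.83 ± 0.26, n = 2) and Mast clusters (-0.75 ± 0.05, n = 2) were above the other cells in 0 libraries. Yet stress_Micro exceeded Micro_2 in both its libraries, at 4663 against 3841 CPM in brain 24 h replicate 2 and 9057 against 6286 CPM in brain 72 h. Micro_1, the largest microglia cluster with 4357 cells, was above the rest in 2 of 7 libraries. Within a single library the highest cluster exceeded the lowest by 2.27-fold in control brain and by 4.59-fold in brain 24 h replicate 2.

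Complexes I and IV had the same highest and the same lowest cluster. Complex I summed to 8046 CPM in prolif_cells and 2432 CPM in stress_Myeloid, and complex IV to 7424 and 2365 CPM. The ratio of complex IV to complex I was 1.03 ± 0.22 (SD, n = 6) in NK and 0.776 ± 0.198 (n = 7) in Micro_1, a difference about as large as these SDs. The highest was 1.18 in Macro_1, from brain 72 h alone, on the shorter gene list. The lowest was 0.737 in Mast, from dura libraries alone, on the longer list. In NK, complex IV exceeded complex I only on the shorter gene list. It was 5758 against 4333 CPM in brain 24 h replicate 2 and 6420 against 4992 CPM in brain 72 h. In control dura it was 6926 against 7616 CPM. This was not particular to NK. In brain 24 h replicate 2 complex IV also exceeded complex I in Tc (4964 against 4103 CPM) and Granulo_1 (6918 against 5765 CPM). In control dura it did not (6446 against 7503 CPM and 6845 against 6944 CPM). Micro_1 went the other way in replicate 2, at 1680 against 1823 CPM. Subunits of mitochondrial genes, counted from 11 mt- genes, did not follow the nuclear ones. They summed to 34758 CPM in stress_Micro and 22188 CPM in Bc, which were low for the nuclear genes, and to 5482 CPM in Granulo_2. The stress_Micro mean rests on brain 24 h replicate 2 and brain 72 h, with a mitochondrial share of UMIs of 3.96% and 4.11%. In these libraries the share was also high in Micro_1, at 3.68% and 2.74%. In Micro_1 of control brain and brain 24 h replicate 1 it was 0.874% and 0.827%. Over the 21 clusters, Pearson's r of log2 mean levels with the nuclear sum was -0.06 for the mitochondrial genes, 0.99 for ATP synthase, 0.78 for the citric acid cycle, 0.73 for cytosolic ribosomal proteins and 0.61 for glycolysis. These are descriptions over clusters that share some libraries and differ in others, and the authors' cell filter used the mitochondrial share.

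Of 2976 other genes with a mean of at least 50 CPM, the 10 whose pattern over the 21 clusters was most like that of the 72 genes were Atp5mpl (r = 0.98), Tomm5 (0.95), Atp5o (0.94), Psma2 (0.94), Atp5h (0.94), Tomm22 (0.94), Tomm7 (0.94), Atp5j (0.93), Mrps24 (0.93) and Grpel1 (0.93). Atp5mpl, Atp5o, Atp5h and Atp5j belong to ATP synthase, and Tomm5, Tomm7 and Tomm22 to the channel that imports proteins through the outer mitochondrial membrane.

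Among single genes, the most abundant complex IV subunit was Cox4i1, which averaged 737 CPM over clusters. Its top cluster was Granulo_1 with a mean of 1208 ± 183 CPM (SD, n = 7). Cox8a followed with a mean of 604 CPM and its highest level in NK (953 ± 234 CPM, n = 6), and Cox7c with 498 CPM and its highest level in gdTc (784 ± 127 CPM, n = 4). In complex I, the accessory subunits Ndufa13, Ndufa2 and Ndufa6 led with means of 329, 264 and 257 CPM. Ndufa6 differed from the others in its order of clusters, with 512 ± 162 CPM in mDC1 (n = 6) and 422 CPM in mDC2 as its highest levels. In complex III, Uqcrh, the hinge protein that binds cytochrome c1, led with 337 CPM and was highest in ILC2 (630 ± 86.8 CPM, n = 5), ahead of Uqcrb at 316 CPM and Uqcrq at 291 CPM. One RNA gives one tag near its 3′ end in this assay, so these levels were not divided by gene length.

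The 4 subunits of complex II were less abundant. Sdhb, the iron-sulfur subunit, averaged 187 CPM over clusters, the catalytic flavoprotein Sdha 107 CPM, and the membrane anchors Sdhd and Sdhc 84.6 and 49.7 CPM. Sdha was highest in Tc (166 ± 66.3 CPM, n = 8), Sdhb in prolif_cells (296 ± 147 CPM, n = 3), Sdhc in CAM_2 (83.1 ± 13.4 CPM, n = 8) and Sdhd in Granulo_1 (156 ± 79.9 CPM, n = 7). The assembly factor Sdhaf1 was at 128 ± 34.3 CPM in ILC2 (n = 5), above its next cluster, mDC2, at 71.5 CPM.

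Several complex IV subunits exist as a widespread form and a form known from muscle, testis or lung. The widespread forms Cox4i1, Cox6a1, Cox6b1, Cox7a2, Cox7b and Cox8a were found in every cluster. Of the restricted forms Cox7b2 had 0 UMIs in annotated cells, Cox8c 1, Cox4i2 15, Cox8b 24, Cox7a1 247 and Cox6b2 590, and the Ndufa4 relative Ndufa4l2 had 9. Cox6a2, known as the heart and skeletal muscle form, was the exception with 1022 UMIs. It reached 145 ± 87.9 CPM in mDC1 (n = 6), with 23.1 CPM in SAMC as its next level. By library, Cox6a2 in mDC1 was at 280 CPM in control dura, 93.9 in control pia, 110 in brain 24 h replicate 2, 225 in dura 24 h, 49.9 in pia 24 h and 113 in brain 72 h. In mDC2 it was at 0 CPM in 4 of the 6 libraries and at 1.83 and 2.07 CPM in pia 24 h and brain 72 h. The mDC1 and mDC2 ranges thus did not overlap.

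**Figure D2:**
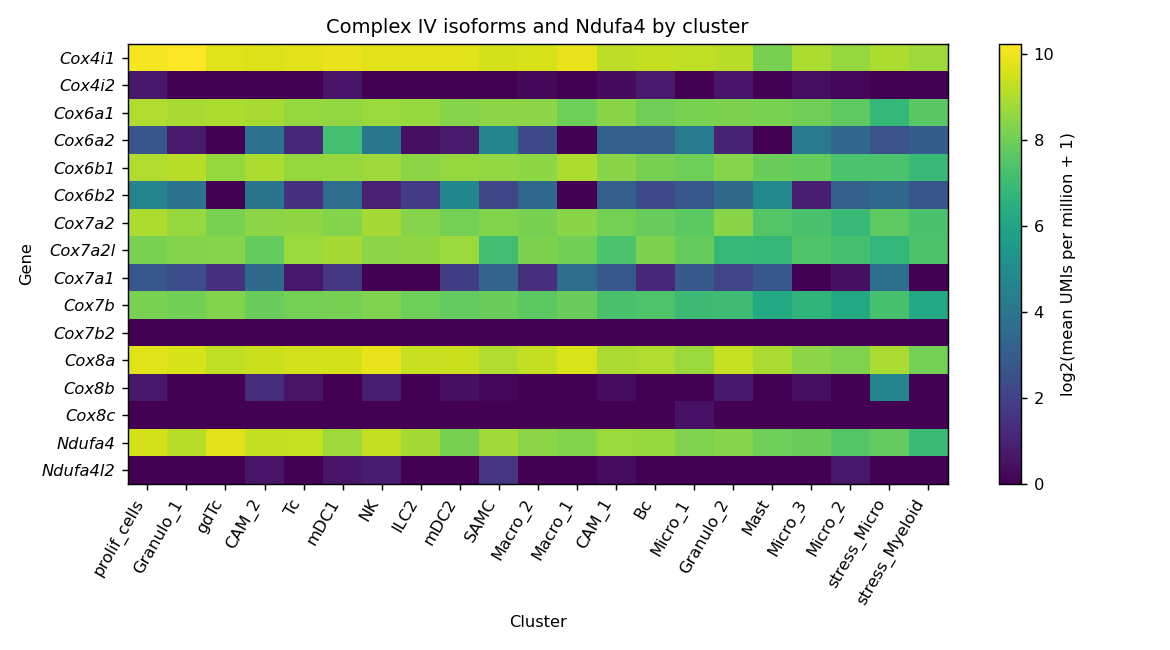
Mean level of complex IV isoforms and of Ndufa4 with its relative Ndufa4l2 in each cluster, as log2(mean CPM + 1), clusters ordered by the summed level of the 72 genes. The widespread forms are filled across the row, and Cox6a2 stands out in mDC1 at 145 CPM.

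The Cox6a2 molecules of mDC1 lay in a subset of its cells. A Cox6a2 UMI was found in 145 of 1131 mDC1 cells (12.8%), in 4.12% of SAMC cells, in 0.0837% of ILC2 cells and in 0 of 668 gdTc cells, which allows a share of cells with a UMI of up to 0.449% and sets no limit on cells that express the gene. Median depth was 3086 UMIs per cell in mDC1, 3402.5 in SAMC, 923 in ILC2 and 1058 in gdTc. Among mDC1 cells with a UMI of Siglech, Ccr9 or Klk1, genes known from plasmacytoid dendritic cells, and none of Clec9a or Xcr1, it was found in 111 of 213 (52.1%). Among those with Clec9a or Xcr1, markers of type 1 conventional dendritic cells, and none of the first set, it was found in 2 of 162 (1.23%). Median depth was 2454 UMIs in the first set and 3886.5 in the second, so the share was higher in the shallower cells. In the 5 libraries with at least 10 such cells, the share ran from 31.2% to 80.6% in the first set, and in the 5 libraries for the second set from 0% to 5.26%, so the ranges did not overlap. These 5 genes were chosen after the Cox6a2 level was seen, and the cells with neither set, 727 in number, had it in 2.75%.

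Ndufa4, which was first assigned to complex I and is now placed in complex IV, was highest in gdTc at 889 ± 127 CPM (n = 4) and lowest in stress_Myeloid at 125 CPM. Its relative AA467197, also called Nmes1, is not one of the 72 genes and is known to take the place of Ndufa4 in activated myeloid cells. In Granulo_2 it ran from 227 to 857 CPM with a median of 306 CPM (n = 6), and in microglia clusters from 0 to 11.6 CPM with a median of 2.02 CPM (n = 8). It was lower in microglia than in macrophages by edgeR (log2 fold change -4.76 ± 0.32, adjusted p = 6.63e-08) and higher in Granulo_2 (3.24 ± 0.29, adjusted p = 3.78e-08). By edgeR it was also higher in dendritic clusters than in macrophages (2.76 ± 0.40, adjusted p = 0.000695) and in SAMC than in microglia (2.35 ± 0.44, adjusted p = 0.00237). It was lower in lymphoid clusters than in macrophages (-1.01 ± 0.39, adjusted p = 0.0455) and in proliferating than in other cells (-1.49 ± 0.27, adjusted p = 0.00232). SAMC against macrophages did not pass (-1.93 ± 0.57, adjusted p = 0.228).

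Cell classes were then compared within libraries by edgeR's quasi-likelihood test on summed UMIs, with the library as a block and Benjamini-Hochberg adjustment over all genes tested. The reference was the sum of the macrophage clusters CAM_1, CAM_2, Macro_1 and Macro_2, so comparisons with it share these samples. Errors of log2 fold changes are standard errors.

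Most members were lower in microglia than in macrophages in the fit over 8 libraries, though not in each library. Of 66 members tested, 45 were lower and 0 higher (edgeR; 0 higher also at an unadjusted p under 0.05 and by DESeq2), beside 14.7% lower and 9.02% higher among all 8757 genes tested. The median log2 fold change of the members was -0.65, against -0.01 over all genes. Summed over the 4 microglia clusters, the 72 genes stood at a lowest of 4400, a median of 8969 and a highest of 16737 CPM over 8 libraries, and in macrophages at 8672, 12460 and 15020 CPM.

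The supernumerary subunits of complex I made up the largest share of the calls, with 25 of 29 lower, while 0 of 7 core subunits passed in either direction and their median was -0.33. Of complex IV 11 of 14 tested were lower, of complex III 6 of 8, and of complex II 3 of 4, where Sdha alone did not pass. Whether core and supernumerary subunits differ was not tested. Ndufb9, a supernumerary subunit of the membrane arm, was at a lowest of 52.1, a median of 74.6 and a highest of 131 CPM in microglia and at 90.8, 131 and 239 CPM in macrophages. It was lower in 8 of 8 libraries although the ranges overlapped (log2 fold change -0.96 ± 0.16, adjusted p = 0.000404), and was the only called member with the same direction in every library. Cox7b, a complex IV subunit, had the lowest value of a called member (-1.01 ± 0.19, adjusted p = 0.00119), with 62.7, 90.4 and 187 CPM against 90.7, 147 and 384 CPM.

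Lists of related genes showed what moved beside them. ATP synthase genes were lower in 17 of 18 cases (median -0.78), cytosolic ribosomal proteins in 81 of 82 (-0.85), mitochondrial ribosomal proteins in 33 of 78 (-0.46) and glycolysis genes in 9 of 14, with 1 higher (-0.61). Subunits of mitochondrial genes passed in 0 of 10 (-0.04), citric acid cycle genes in 0 of 13 (-0.29), and regulators such as Nrf1 and Gabpa in 0 of 9 (0.22). Assembly factors were lower in 5 of 30, and electron carriers in 1 of 11.

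The size of the microglia difference varied with library and scaling. Median ratios of the members per library, scaled by total UMIs, ran from -1.24 in brain 24 h replicate 2 to 0.23 in dura 24 h, and were below 0 in 6 of 8. With this scaling the median over all genes was 0.44 in dura 24 h and 0.53 in control dura. The member median lay below that of all genes in each library. In control brain the member median was -0.08, against -0.03 over all genes, with 28 of 66 members above 0. In the libraries with the lowest medians, brain 24 h replicate 2 and brain 72 h (-0.82), the mitochondrial share of UMIs was 3.24% and 2.84% in microglia and 2.01% and 1.69% in macrophages, and in replicate 2 Micro_1 and Micro_2 had a median of 795 and 873.5 UMIs per cell. In the other 6 libraries the share was 0.761% to 1.92% in microglia and 0.791% to 2.03% in macrophages, and the part of RNA quality in the result was not tested. The dura libraries, with a median of 0.20 in the control, held 51 and 76 microglia cells, whose level of the macrophage marker Apoe was 24802 and 27378 CPM, against 386 to 10033 CPM in the microglia of the other libraries. Their level of the microglia marker P2ry12 was 517 and 127 CPM, against 389 to 7265 CPM. Conversely, the macrophage clusters of control brain carried 4830 CPM of P2ry12, against 38.0 to 532 CPM elsewhere, the 532 CPM in brain 24 h replicate 1. Summed microglia markers stood at 63455 CPM in macrophages of control brain and 29078 CPM in those of replicate 1, against 4347 to 8398 CPM elsewhere. Apoe was at 5491 and 1885 CPM in these 2 libraries, against 8250 to 48014 CPM in macrophages elsewhere. Without both dura libraries 45 members were lower, without control brain as well 48, and without stress_Micro 42. Among all genes 1099 of 9020, 1249 of 9058 and 1038 of 8647 were lower in these fits. Scaling by library size alone moved the median of all genes by 0.20 and left 13 members lower, with a member median of -0.38. Beside them stood 1393 higher and 597 lower of all 8757 genes, so the split of all calls turned from 38.0% higher to 70.0% higher. Without the library block 0 members were called, beside 12 higher and 64 lower among all 8757 genes.

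**Figure D3:**
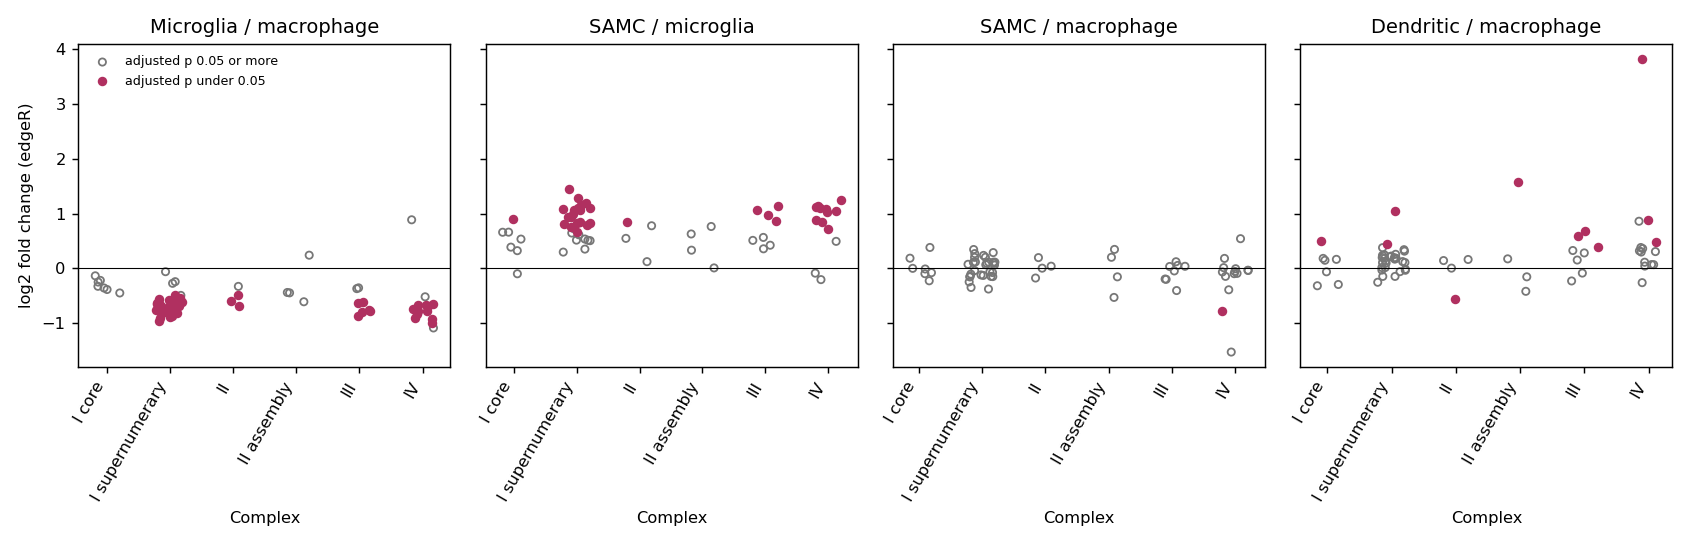
Log2 fold change (edgeR) of each member tested in 4 comparisons, by complex. Filled points passed an adjusted p under 0.05, 45 of 66 in microglia against macrophages, 36 of 65 in SAMC against microglia, 1 of 66 in SAMC against macrophages and 11 of 66 in dendritic clusters against macrophages.

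The start regions of 4 of these genes show genes that were lower together with and without the letters of known regulators, as 250 bases before the start of each gene in RefSeq on GRCm38.p6, 5′ to 3′ along the gene. Cox7b, Cox5a and Ndufb6 had the lowest log2 fold changes of the called members with a start region in the table, and Cox6a1 (-0.67) is the widespread partner of Cox6a2. Capitals mark matches to the core GCGCATGC bound by NRF1 and to the core CCGGAAG bound by ETS factors such as GABP, on either strand.
Cox7b, chrX:106015450-106015699, plus strand: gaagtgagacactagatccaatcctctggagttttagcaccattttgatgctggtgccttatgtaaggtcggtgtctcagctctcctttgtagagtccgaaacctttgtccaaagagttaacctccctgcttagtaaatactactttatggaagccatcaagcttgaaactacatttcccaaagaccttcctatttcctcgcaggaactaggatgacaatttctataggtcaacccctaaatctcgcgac
Cox5a, chr9:57520982-57521231, plus strand: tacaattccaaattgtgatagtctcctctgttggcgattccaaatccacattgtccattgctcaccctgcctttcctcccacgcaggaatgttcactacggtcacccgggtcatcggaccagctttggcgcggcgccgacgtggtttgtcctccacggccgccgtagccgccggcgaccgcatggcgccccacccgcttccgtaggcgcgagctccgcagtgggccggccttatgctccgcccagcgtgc
Ndufb6, chr4:40279422-40279671, minus strand: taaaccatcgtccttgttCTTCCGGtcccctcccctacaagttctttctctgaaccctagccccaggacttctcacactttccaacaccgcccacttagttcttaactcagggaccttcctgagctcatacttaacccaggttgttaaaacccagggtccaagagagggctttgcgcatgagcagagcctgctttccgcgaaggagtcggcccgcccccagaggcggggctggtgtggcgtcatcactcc
Cox6a1, chr5:115348959-115349208, minus strand: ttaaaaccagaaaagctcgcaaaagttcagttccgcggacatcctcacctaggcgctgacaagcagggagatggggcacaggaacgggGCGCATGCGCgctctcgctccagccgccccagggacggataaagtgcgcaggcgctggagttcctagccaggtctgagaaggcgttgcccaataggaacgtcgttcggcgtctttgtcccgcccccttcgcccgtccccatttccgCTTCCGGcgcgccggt
In windows of 250 bases before and 50 after the start, 58 of the 72 genes had an entry. The NRF1 core was found in 7 of these genes (12.1%) and in 2.71% of all 32851 start regions, the ETS core in 14 (24.1%) against 8.86%, and the YY1 motif AAGATGGC in 7 (12.1%) against 2.75%. These are letter matches with no test.

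SAMC, the stroke-associated myeloid cells, stood above microglia and near macrophages. Against microglia, 36 of 65 members tested were higher and 0 lower (edgeR; 0 lower at an unadjusted p under 0.05 and by DESeq2), beside 10.9% higher and 12% lower among all genes, with a member median of 0.79. Their summed level was 10747 and 8161 CPM in the 24 h brain replicates, 16433 CPM in pia 24 h and 16199 CPM in brain 72 h. In the microglia of the same libraries it was 9320, 4400, 9763 and 8437 CPM, lower in each. Median log2 ratios of the members were 0.14, 0.95, 0.69 and 0.94 in these libraries. The mitochondrial share of UMIs was 0.378%, 1.81%, 1.34% and 1.74% in SAMC and 0.761%, 3.24%, 1.20% and 2.84% in microglia. SAMC had more UMIs per cell than each microglia cluster in every library, with a median of 4606 at 72 h against 636 to 2420. The part of RNA quality and depth was not tested.

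Ndufb6, of the complex I membrane arm, led with 65.7 to 219 CPM in SAMC and 20.0 to 92.8 CPM in microglia, a log2 fold change of 1.45 ± 0.22 (adjusted p = 0.000627), higher in 4 of 4 libraries. Ndufb8 (1.28 ± 0.23, adjusted p = 0.00213), Cox7b (1.25 ± 0.22, adjusted p = 0.00157) and Ndufa3 (1.19 ± 0.25, adjusted p = 0.00447) followed, each higher in 4 of 4 libraries. By complex, 21 of 36 members of complex I were higher, 4 of 8 of complex III, 10 of 13 of complex IV and 1 of 4 of complex II. ATP synthase genes were higher in 12 of 18 (median 0.95) and glycolysis genes in 8 of 13, with 1 lower (1.25). Cytosolic ribosomal proteins were higher in 49 of 82 (0.63) and mitochondrial ribosomal proteins in 30 of 78 (0.66), with 0 lower in either list. Subunits of mitochondrial genes had a median of -0.45, with 1 of 11 lower and 0 higher. The count of members called fell to 21 without brain 24 h replicate 2, beside 453 higher of all 7981 genes. Without brain 72 h it fell to 23, beside 617 higher of 6731. It was 0 without the library block, beside 14 higher and 16 lower among all 8331 genes. Library size alone moved the median of all genes by -0.15 and the split of all calls from 47.6% to 32.8% higher.

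Against macrophages, 1 of 66 members differed in SAMC and it was lower, beside 2.16% lower and 0.767% higher among all genes (0 higher by edgeR, 1 higher at an unadjusted p under 0.05, 0 higher by DESeq2). The gene was Cox7a2l, with 74.7 to 211 CPM in SAMC and 115 to 345 CPM in macrophages (-0.78 ± 0.20, adjusted p = 0.0411). Cox7a2l is placed here with complex IV as a supercomplex factor, and supercomplexes were not measured in these mice. It was lower in 4 of 4 libraries, but DESeq2 made no call, and the call was lost without brain 24 h replicate 2, without pia 24 h or without brain 72 h (0 called each). The member median was -0.02 and ranged from -0.32 to 0.30 by library.

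Dendritic clusters mDC1 and mDC2 had 10 members higher than macrophages and 1 lower of 66 tested, beside 15.9% higher and 17.3% lower among all genes, with a member median of 0.17. Ndufa6 ran from 323 to 624 CPM, with a median of 474 CPM, and in macrophages from 167 to 294 CPM, with a median of 230 CPM, without overlap (1.04 ± 0.14, adjusted p = 0.000134). Cox7a2l was higher as well, from 324 to 550 CPM against 115 to 345 CPM, with ranges that overlapped at their ends (0.88 ± 0.14, adjusted p = 0.000462). Uqcrfs1, the Rieske iron-sulfur protein of complex III (0.68 ± 0.14, adjusted p = 0.00215), and Sdhaf1 (1.57 ± 0.21, adjusted p = 0.000122) were higher in 7 of 7 libraries. Sdhc was lower in 7 of 7 (-0.56 ± 0.14, adjusted p = 0.0085). Cox6a2 had the largest value (3.83 ± 0.72, adjusted p = 0.00309) and was higher in 6 of 7 libraries. The exception was brain 24 h replicate 1, with 11.8 CPM in its 51 dendritic cells and 41.3 CPM in macrophages. ATP synthase genes were higher in 9 of 18, and 4 of 10 subunits of mitochondrial genes were lower. Cytosolic ribosomal proteins were higher in 80 of 82 (median 0.71), and mitochondrial ribosomal proteins in 13 of 78, with 2 lower. Without brain 72 h 17 members were higher, beside 1165 of all 7052 genes. Without brain 24 h replicate 2, 3 members were lower, beside 1277 of 8157.

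In lymphoid clusters, 5 of 64 members were higher than in macrophages and 9 lower, beside 27.5% higher and 26.8% lower among all genes, with a median of 0.00. Uqcrh had 411 to 605 CPM with a median of 510 CPM in lymphoid cells and 139 to 398 CPM with a median of 247 CPM in macrophages, without overlap (0.82 ± 0.16, adjusted p = 0.000524). Sdhaf1 (1.37 ± 0.20, adjusted p = 4.02e-05) and Ndufb11 (0.58 ± 0.15, adjusted p = 0.00463) were higher too, all in 8 of 8 libraries. The counts of calls depended on the scaling, for members as for all genes. Library size alone moved the median of all genes by 0.29. It gave 22 members higher and 1 lower, beside 3041 higher and 1420 lower of all 7545 genes. The split of all calls went from 50.6% to 68.2% higher. Relative to all genes, the member median was -0.05 with the main scaling and -0.04 with library size alone. Without control brain or without brain 24 h replicate 1, 15 members were lower, beside 2302 of 8532 and 2071 of 7508 genes. Without brain 72 h 8 members were higher, beside 1987 of 7494. Cytosolic ribosomal proteins were higher in 70 of 82 (median 0.76), and subunits of mitochondrial genes in 4 of 10.

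In Granulo_2, which carries the granulocyte marker S100a8, 9 of 63 members were higher and 10 lower than in macrophages, beside 20.5% higher and 25.6% lower among all genes. Within complex I 7 of 36 were higher and 8 lower, shares near those of all genes. Ndufb7 was at 252 to 381 CPM against 167 to 310 CPM (1.13 ± 0.24, adjusted p = 0.000622), and Ndufa1 (1.07 ± 0.24, adjusted p = 0.00117) and Ndufa3 (0.83 ± 0.23, adjusted p = 0.00658) were also higher in 6 of 6 libraries. Ndufa12, an accessory subunit, ran from 23.9 to 77.3 CPM against 100 to 385 CPM, with no overlap (-1.33 ± 0.27, adjusted p = 0.000571). Ndufc2 (-1.20 ± 0.28, adjusted p = 0.00196), the core subunit Ndufs3 (-1.17 ± 0.29, adjusted p = 0.00278) and Sdhaf4 (-1.88 ± 0.40, adjusted p = 0.000738) were lower in 6 of 6. The balance moved with the scaling, for members as for all genes. Library size alone shifted the median of all genes by -0.52 and gave 2 members higher and 29 lower. Beside them stood 703 higher and 2552 lower of all 5967 genes. The split of all calls went from 44.4% to 21.6% higher. Without control dura or without dura 24 h, 5 members were higher, beside 1085 of 6211 and 956 of 5979 genes. Glycolysis genes were higher in 9 of 14 (median 1.22) and lower in 1, subunits of mitochondrial genes were lower in 6 of 10 (-0.89) and cytosolic ribosomal proteins in 75 of 82 (-1.14).

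For proliferating cells, at 16911 CPM in control dura, 24343 CPM in dura 24 h and 16180 CPM in brain 72 h, 0 of 67 members passed in either direction against all other cells of their libraries (edgeR and DESeq2; 1 higher and 2 lower at an unadjusted p under 0.05), beside 6.28% higher and 5.84% lower among all genes. Only 3 libraries entered. Without brain 72 h 1 member was called higher, Ndufb9, and 2 lower, Sdhaf1 and Cox6a2. Beside them stood 830 higher and 1241 lower of all 10029 genes. The member median was 0.11 with the main scaling and 0.42 with library size alone, which shifted the median of all genes by 0.28. The latter called 9 members higher, beside 1117 higher and 438 lower of all 10121 genes. It moved the split of all calls from 51.8% to 71.8% higher.

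For the response to stroke, 24 h was compared with control with the compartment as a block. In macrophage clusters the summed level was 8672 CPM in control brain and 12142 and 10718 CPM in the 24 h brain replicates. It was 10791 CPM in control and 13847 CPM in 24 h pia, and 12778 and 14449 CPM in dura. Each 24 h library was above its control in this sum, and brain 72 h stood at 15020 CPM. CAM_2 and Macro_2 were also higher in each 24 h library than in its control. CAM_1 was so except in brain 24 h replicate 2, at 6200 CPM against 7612 CPM in control brain. The make-up of the sum differed as well. CAM_1 held 381503 of 661472 macrophage UMIs in control brain, while Macro_2 held 453596 of 897362 in replicate 2. No member passed in either direction among 66 tested (edgeR and DESeq2; 1 higher and 0 lower at an unadjusted p under 0.05), beside 0% higher and 0% lower among all 8875 genes by edgeR, and the member median was 0.20. Uqcrq, which was at 171, 256 and 198 CPM in control brain, dura and pia and at 332 to 391 CPM in the 4 libraries of 24 h, had the smallest p (log2 fold change 0.73 ± 0.30, adjusted p = 0.932). Without brain 24 h replicate 2, 1 member, Ndufa12, was called higher, beside 40 higher and 45 lower of all 8678 genes. Macrophage clusters of control brain, and to a lesser degree of brain 24 h replicate 1, carried microglia markers, as given above. The part of this in the difference was not tested.

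**Figure D4:**
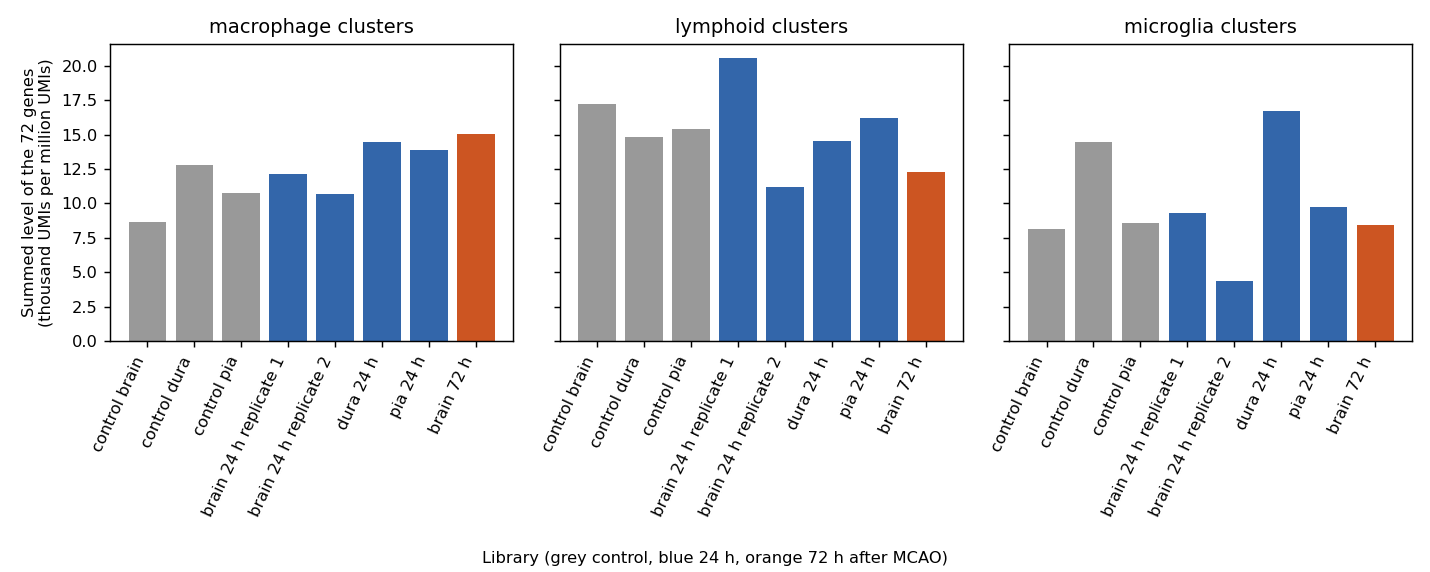
Summed level of the 72 genes (kilo-CPM) per library in macrophage, lymphoid and microglia clusters, 1 bar per library, with control in grey, 24 h in blue and 72 h in orange. Macrophage bars are higher at 24 h than in the control of the same compartment, and brain 24 h replicate 2 is the lowest library of the lymphoid and microglia clusters, at 11161 and 4400 CPM.

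In lymphoid clusters the order changed with the library. From 17202 CPM in control brain the level was 20545 and 11161 CPM in the 24 h replicates, so they lay on both sides of the control. In pia it was 15401 CPM in control and 16214 CPM at 24 h, and in dura 14815 and 14543 CPM. Of 64 members 0 passed in either direction (edgeR and DESeq2, 0 also at an unadjusted p under 0.05), beside 0% higher and 0% lower among all 6591 genes, and the median was -0.05. Brain microglia held 8171 CPM in control, 9320 and 4400 CPM at 24 h and 8437 CPM at 72 h, and with 1 library at 2 of these times no test was made.

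Of the 63 members with a mean of at least 20 CPM over libraries, 15 were lower in both shorter-list libraries than in every longer-list library and 2, Cox7b and Cox8a, were higher. Over all 5622 genes past that floor the shares were 19.7% and 25.6%. Below the floor, Sdhaf3 was lower and Cox8b higher. Sdhd, an anchor of complex II, was at 25.6 and 34.3 CPM in the shorter-list libraries and at 102 to 127 CPM in the other 6. Uqcrb, which supports ubiquinone binding in complex III, was at 157 CPM or less against 301 to 492 CPM. Uqcrc1, a core protein of complex III, was at 82.0 and 133 CPM against 176 to 285 CPM. Cox8a was at 633 and 913 CPM against 246 to 601 CPM. Only Cox8b was at least 4 times apart, at 0.891 and 1.05 CPM against 0 to 0.172 CPM, so near 0 in all libraries. The methods name 2 versions of the kit chemistry without saying there which library had which. The shorter-list libraries shared 13 cell barcodes with each other and at most 2 with any longer-list library. Pairs of longer-list libraries shared 12 to 43. Brain 24 h was sampled on both lists, so list, kit chemistry and individual library cannot be told apart. The cause of these differences was not tested.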

How the data were processed

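Leukocytes sorted as CD45+ and CD45iv- were profiled by 10x 3′ single-cell sequencing in 8 libraries, with kits of different chemistry versions by the paper's methods. The deposited counts are whole UMI counts per gene and cell that the authors made with Cell Ranger 6.0 and mm10, as named in the submitters' processing notes. The authors filtered cells by detected genes and mitochondrial share, removed doublets with scDblFinder, and clustered them in Seurat after Harmony integration. Their deposited annotation gave the cell types, and no further doublet call was made. A high mitochondrial share was thus filtered before these values.

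UMIs were summed over the cells of each library and cluster or class with at least 30 cells, over the 30406 genes shared by both gene lists, and expressed as CPM. Sums were tested with edgeR 4.0.16 in R 4.3.3 (filterByExpr, TMM, robust quasi-likelihood F-test, two-sided, Benjamini-Hochberg adjustment over all genes tested), with the library, or for 24 h against control the compartment, as a block. A gene was called at an adjusted p under 0.05. Standard errors are the absolute log2 fold change over the square root of F. Per-library ratios added 0.5 counts to each sum. DESeq2 1.42.0, library size alone, no filter, no block, another cell minimum and leaving out libraries were the alternatives. Leaving out stress_Micro, both dura libraries or control brain was chosen after seeing the data. Scripts were tested on simulated data. Tables and figures used Python 3.11.15.

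The members, gene lists and tests were chosen with earlier results of these data known. Genes named were the 3 most abundant of each complex, up to 4 called members per direction that changed alike in every library, the complex II subunits, Ndufa4 and its relatives, isoforms of complex IV, and members at least 4 times apart between gene lists. Cox7b, Cox5a, Ndufb6 and Cox6a1 among microglia values, Sdhd, Uqcrb, Uqcrc1 and Cox8a among the gene lists, Cox6a2 in dendritic cells, Uqcrq at 24 h, genes called only without 1 library, and Siglech, Ccr9, Klk1, Clec9a and Xcr1 in mDC1 were chosen after their values were seen. Intervals for shares and limits cover counting error only.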

Additional observations from a re-analysis of the deposited data

Results flagged for a closer look

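The Micro_1 cluster of dura 24 h had 20450 CPM of the 72 genes, far from the other 6 libraries, of which the next was at 10456 CPM. The gap was 0.620 of the whole range, beyond Dixon's 95% limit for 7 libraries. This value rests on 36 cells, and the microglia clusters of dura 24 h carried 27378 CPM of Apoe, as given above. In gdTc, brain 72 h stood apart at 13169 CPM, with the next library at 17353 CPM and a gap of 0.941 of the range, beyond the limit for 4. Among the gdTc libraries it was the only one from brain, from 72 h and on the shorter gene list. Such a gap was found in 2 of 16 clusters examined. Chance gives it in about 1 in 20 where all libraries are alike, which they are not here. In lymphoid clusters the log2 ratio of the summed level at 24 h to control was 0.0743 in pia and -0.0267 in dura. The opposite signs rest on 1 library per group and the difference was not tested.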

How the results depend on the processing

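Of 466 cluster levels, counts and medians under alternatives, 404 stayed near the value given and 62 moved. Of 271 values of named genes, 255 kept their direction and side of the threshold, 16 lost the call and 0 changed sign. With a minimum of 10 cells ILC2 was at 15288 and Mast at 9931 CPM. SAMC then had 2 members lower than macrophages, beside 339 of all 8078 genes, and prolif_cells 1 lower, beside 1241 of 9495. With every cell weighted equally Bc was at 12687 CPM. With library size alone, lymphoid clusters had 22 members higher and 1 lower, microglia 13 lower, Granulo_2 2 higher and 29 lower (median -0.54), and prolif_cells 9 higher (median 0.42). The counts over all genes with this scaling are given above for each. Without the block, lymphoid clusters had 3 higher and 4 lower, beside 1178 and 1475 of all 7545 genes. Microglia had 0 lower, beside 12 higher and 64 lower of 8757. SAMC had 0 lower than macrophages, beside 0 higher and 0 lower of 8474. Against microglia SAMC had 0 higher, beside 14 higher and 16 lower of 8331. Granulo_2 had 4 higher and 4 lower, beside 914 and 1172 of 5967. Dendritic clusters had 4 higher and 0 lower, beside 466 and 583 of 7588. With a fold of at least 2, lymphoid clusters had 1 higher and 0 lower, beside 944 and 1200 of all 7545 genes. Microglia had 1 lower, beside 326 higher and 436 lower of 8757. SAMC had 0 lower than macrophages, beside 34 higher and 141 lower of 8474. Against microglia SAMC had 19 higher, beside 499 higher and 789 lower of 8331. Granulo_2 had 2 higher and 5 lower, beside 938 and 1305 of 5967. Dendritic clusters had 3 higher and 0 lower, beside 472 and 691 of 7588. With no filter, lymphoid and Granulo_2 clusters had 3 higher each, beside 2678 of 19889 and 1643 of 18671 genes. The prolif_cells cluster had 1 lower, beside 1085 of 21401. DESeq2 gave 3 higher in lymphoid clusters, beside 1890 of all 7545 genes, and 0 lower in SAMC against macrophages, beside 105 of 8474. In longer-list libraries alone, with fewer libraries in the fit, microglia had 26 lower, beside 253 higher and 695 lower of all 8559 genes. Dendritic clusters had 16 higher and 3 lower there, beside 1238 and 1295 of 7870. Other causes were not tested.

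Each library was left out in turn, and counts over all genes tested are given beside those of the members. Lymphoid clusters had 3 to 8 members higher and 6 to 15 lower, beside 1634 to 2156 and 1723 to 2302 genes. Microglia had 0 to 1 higher and 35 to 47 lower, beside 419 to 883 and 853 to 1393. SAMC had 0 to 1 higher and 0 to 2 lower than macrophages, beside 34 to 98 and 73 to 299. Against microglia SAMC had 21 to 36 higher, beside 453 to 739. Granulo_2 had 5 to 10 higher and 7 to 9 lower, beside 956 to 1303 and 1324 to 1604. Dendritic clusters had 8 to 17 higher and 1 to 3 lower, beside 952 to 1359 and 1028 to 1333. The prolif_cells cluster had 0 to 1 higher and 0 to 2 lower, beside 339 to 830 and 185 to 1241. Macrophages had 0 to 1 higher at 24 h, beside 0 to 40. Where this left a single library of a condition, it was assumed to vary like the others.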
